A study of Mus musculus with 9 samples.

Results

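Genes that store, release and carry iron were followed in CD11b+ cells of injured mouse livers: Fth1, Ftl1, Ncoa4, Slc40a1, Tfrc, Slc11a1, Slc11a2, Ireb2 and Hfe. These 9 were chosen by name, and all were found among the 45777 genes of the tables by their gene IDs. All mice had received acetaminophen (APAP) by intraperitoneal injection, which causes acute liver failure, and no uninjured liver was analysed here. The 9 samples form 3 groups of 3, harvested 48 hours after APAP. The PBS group received the vehicle, the HEK-EV group SIRP-EVs made by HEK cells (the usual name of a line from human embryonic kidney), and the MSC-EV group MSC derived SIRP-EVs. Extracellular vesicles (EVs) are small membrane particles shed by cells. They were given intravenously 8 hours after APAP. The labels used here do not spell out SIRP or MSC, and give no strain, sex, age, number of animals per sample or vesicle dose. No group received vesicles without SIRP, so the vesicle and what it carries cannot be told apart.

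Macrophages recycle most of the body's iron by breaking down old red cells. They keep it in ferritin, a hollow shell of heavy chains (Fth1) and light chains (Ftl1), and release it through ferroportin (Slc40a1). Cells that need iron take up transferrin-bound iron through the transferrin receptor (Tfrc). The balance is set in large part after transcription: iron regulatory proteins, one of them the product of Ireb2, bind a hairpin called the iron-responsive element (IRE). Bound in the 5′ untranslated region, they block translation. Bound in the 3′ untranslated region of Tfrc, they protect the message from decay. RNA levels of ferritin and ferroportin therefore do not show how much protein is made, whereas the level of the Tfrc message itself responds to iron.

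The IREs are printed because they are the sites of this control in ferritin, ferroportin and the transferrin receptor. A hairpin of a C, an arm of 5 bases, the loop CAGTGN and an arm of 5 bases that pairs with the first (G-T pairs allowed) was searched on the sense strand of coding transcripts of GENCODE mouse release M21, whose build, GRCm38, is the mm10 of the files. It was found in 4 of the 9 members, against 1.34% of 21877 coding genes. These 4 are the genes already known for this control, and the members were chosen by name, so this is not a test of enrichment. The share over all genes counts matches anywhere in a coding transcript, coding sequence included. The sequences below run 5′ to 3′ on the transcript, with the loop in capitals. A match describes the letters only, and the absence of a match in the other 5 members says only that this pattern is not in their transcripts. As background, some Slc11a2 messages carry an IRE in the 3′ untranslated region with an extra bulge, a form that the pattern used here does not match.
Fth1, 5′ UTR, chr19:9982732-9982760, plus strand: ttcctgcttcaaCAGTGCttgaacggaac
Ftl1, 5′ UTR, chr7:45459779-45459807, minus strand: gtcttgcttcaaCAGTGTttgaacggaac
Slc40a1, 5′ UTR, chr1:45925465-45925493, minus strand: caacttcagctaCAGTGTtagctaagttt
Tfrc, 3′ UTR, chr16:32631219-32631247, plus strand: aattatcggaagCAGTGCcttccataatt
Tfrc, 3′ UTR, chr16:32631598-32631626, plus strand: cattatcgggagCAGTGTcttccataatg
Tfrc, 3′ UTR, chr16:32631663-32631691, plus strand: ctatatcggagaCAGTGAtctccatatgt
Tfrc, 3′ UTR, chr16:32631710-32631738, plus strand: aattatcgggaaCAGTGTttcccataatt

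Levels are given in TPM, a share of all transcripts corrected for transcript length, and group levels as mean ± SD (n = 3). Differences between groups are log2 fold changes on the log2(TPM + 1) scale, which understates the change of low genes, with their standard errors (SE) from limma, a linear model fitted here to 13820 genes in all 9 samples. Adjusted p is Benjamini-Hochberg over these genes, with a threshold of 0.05. The labels do not say whether samples of a group came from separate animals, so p-values measure only the spread between these samples.

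The libraries held 13130 to 13633 genes at 1 TPM or more, and samples of a group correlated at 0.980 to 0.993 across genes on the log2 scale. Sequencing depth is unknown, because the tables give no counts. Coverage divided by FPKM, a relative measure of depth, was 5.28 to 6.32 in PBS, 6.25 to 6.47 in HEK-EV and 6.58 to 6.84 in MSC-EV samples. Itgam, which encodes CD11b, lay between 196 and 434 TPM in all 9 samples, with group means of 330 in PBS, 372 in HEK-EV and 229 in MSC-EV. It was lower in MSC-EV than in HEK-EV (-0.70, limma adjusted p = 0.0257), as was the leukocyte gene Ptprc (-0.53, adjusted p = 0.0207). Against PBS, Ptprc was lower as well (-0.46, adjusted p = 0.0271), and the estimate for Itgam was -0.53 (adjusted p = 0.0553). Summed over 21 pancreatic acinar markers, HEK-EV replicate 2 held 1307 TPM, MSC-EV replicate 1 held 170 TPM and MSC-EV replicate 3 held 3662 TPM, while the other 6 held 13.3 to 43.6 TPM. Calls were therefore also run without the libraries richest in these transcripts. Marker sums of other cells moved with the MSC-EV group. Ly6C-high monocyte markers (10 genes) summed to 4156 to 5101 TPM in MSC-EV, 8468 to 10785 in HEK-EV and 6693 to 13268 in PBS samples. Lipid-associated macrophage markers (8 genes) summed to 7643 to 10028, 4794 to 4925 and 4036 to 6723 TPM in the same order. Their part in the results on iron genes was not tested. In bulk samples, fewer cells of a type and less RNA per cell cannot be told apart.

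By mean TPM, Ftl1 ranked 3 and Fth1 ranked 9 among all genes, and Slc11a2, the lowest member, ranked 7558. Mean levels over all 9 samples were 14289.6 TPM for Ftl1, 7663 for Fth1, 396 for Slc40a1, 350 for Slc11a1, 121 for Ncoa4, 74.0 for Hfe, 36.8 for Ireb2, 25.5 for Tfrc and 14.0 for Slc11a2. Neighbours in this order overlapped in 2 cases. Slc40a1 ran from 252 to 512 TPM and Slc11a1 from 303 to 395 TPM. Ireb2 ran from 34.2 to 40.8 TPM and Tfrc from 19.2 to 34.6 TPM. Slc40a1 varied most between samples, with its highest value 2.03 times its lowest, and Ireb2 least, at 1.19 times.

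**Figure D1:**
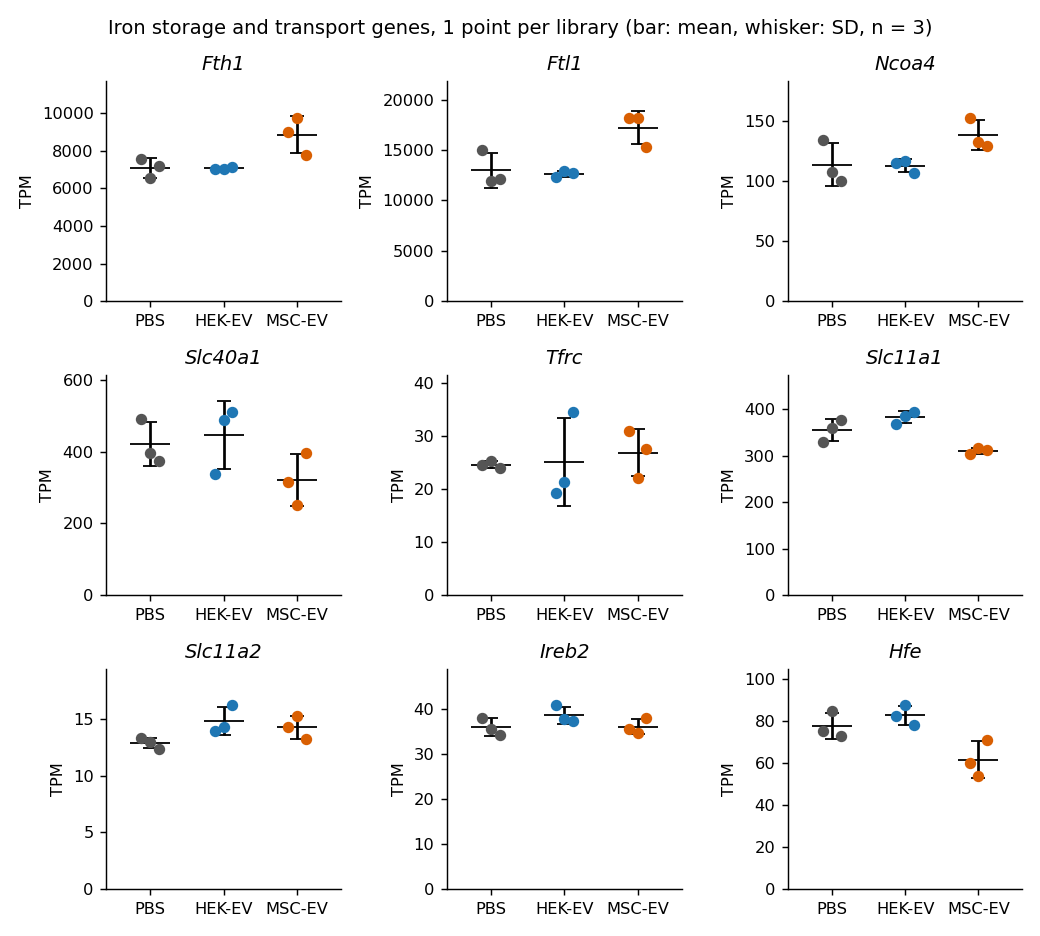
TPM of the 9 iron genes in each library (points), with the group mean (bar) and SD (whisker), n = 3 per group; each panel has its own axis from 0. Fth1 and Ftl1 are highest in the 3 MSC-EV libraries, Slc11a1 and Hfe are lowest there, and Ireb2 stays between 34.2 and 40.8 TPM in all 9.

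The ferritin chains had higher values in the MSC-EV group than in both other groups, and neither chain passed the threshold in the fit reported. Over 24 alternative fits Ftl1 passed in 3 against PBS and in 5 against HEK-EV. Fth1 passed only with array weights, where 30.1% (against PBS) and 15.1% (against HEK-EV) of all genes passed. Ftl1, the light chain, which helps form the iron core (gene ID 14325, chr7:45457944-45459886), stood at 14963, 11881 and 12134 TPM in PBS replicates 1 to 3. It stood at 12320, 12907 and 12710 TPM in HEK-EV and at 18199.6, 18195 and 15296.5 TPM in MSC-EV samples. All 3 MSC-EV libraries were above all 6 others, and PBS replicate 1 was the nearest of those to MSC-EV replicate 3. The log2 fold change of MSC-EV was 0.41 against PBS (SE 0.116, 95% interval 0.15 to 0.67, limma adjusted p = 0.074) and 0.44 against HEK-EV (SE 0.116, 0.18 to 0.70, adjusted p = 0.0564).

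Fth1, the heavy chain, which oxidizes iron so that it can be stored (gene ID 14319, chr19:9980600-9985111), stood at 7579, 6522 and 7166 TPM in PBS samples. It stood at 7011, 7016 and 7148 TPM in HEK-EV and at 9005, 9745 and 7778 TPM in MSC-EV samples. Again no MSC-EV library overlapped the others, and MSC-EV replicate 3, the library with most acinar transcripts, was the lowest of the 3 for both chains. HEK-EV replicate 2, the HEK-EV library richest in them, had the highest Ftl1 of its group and the middle value for Fth1. The part of acinar transcripts in the ferritin levels was not tested. The log2 fold change was 0.32 against PBS (SE 0.0996, adjusted p = 0.0955) and 0.32 against HEK-EV (SE 0.0996, adjusted p = 0.0902). Quantile normalization, which forces the top of every library to the same values, gave 0.02 (against PBS) and 0.13 (against HEK-EV) for Fth1, and 0.21 and 0.16 for Ftl1. Lipid-associated macrophage markers moved with both chains. PBS replicate 1, the highest PBS library for both chains, had the highest PBS sum (6723 TPM), and MSC-EV replicate 3 the lowest MSC-EV sum (7643 TPM). Their part in the ferritin levels was not tested. Between HEK-EV and PBS the estimates were -0.03 for Ftl1 (95% interval -0.29 to 0.23) and below 0.01 in size for Fth1 (-0.23 to 0.22).

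Together the 2 chains made up 2.25%, 1.84% and 1.93% of all TPM in PBS samples. They made up 1.93%, 1.99% and 1.99% in HEK-EV and 2.72%, 2.79% and 2.31% in MSC-EV samples. The means were 2.01% ± 0.218, 1.97% ± 0.0324 and 2.61% ± 0.262. The groups did not overlap in the comparisons of MSC-EV with PBS and with HEK-EV, where the two-sided exact permutation test gave p = 0.1 for each, the smallest that 3 against 3 allows. For HEK-EV against PBS the exact permutation p was 1.

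The heavy to light chain ratio of TPM is free of scaling between samples. It was 0.506, 0.549 and 0.591 in PBS, 0.569, 0.544 and 0.562 in HEK-EV and 0.495, 0.536 and 0.508 in MSC-EV samples. MSC-EV lay below HEK-EV in all samples (0.513 ± 0.0208 against 0.558 ± 0.0132, exact permutation p = 0.1) and overlapped PBS (0.549 ± 0.0421, exact permutation p = 0.3). Mouse ferritin has near-identical copies that can share reads. The light chain copies Ftl1-ps1, Ftl2-ps and Ftl1-ps2 together held 7.13% to 8.02% of the Ftl1 value in every library. The Ftl1 level is therefore uncertain, and the tables do not show how shared reads were assigned or how many were left out.

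**Figure D2:**
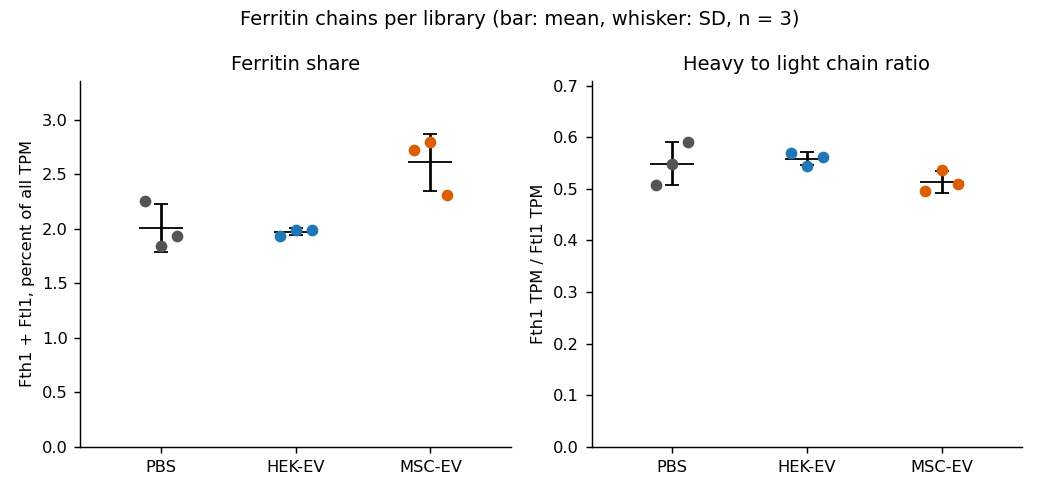
Left, Fth1 plus Ftl1 as a percent of all TPM per library; right, the ratio of Fth1 to Ftl1 TPM; points are libraries, bars means and whiskers SD (n = 3 per group), with both axes from 0. The MSC-EV libraries lie at 2.31% to 2.79%, above the 1.84% to 2.25% of the other 6, while the ratio of MSC-EV (0.495 to 0.536) overlaps that of PBS (0.506 to 0.591).

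Ncoa4 is the receptor that delivers ferritin to the lysosome, where its iron is set free (gene ID 27057, chr14:32159879-32179855). Its values were 134, 107 and 99.7 TPM in PBS, 115, 117 and 107 TPM in HEK-EV and 153, 133 and 129 TPM in MSC-EV samples. The MSC-EV libraries lay above the HEK-EV libraries and overlapped PBS through PBS replicate 1. The log2 fold change was 0.29 against either group (SE 0.108 for each), with limma adjusted p = 0.149 against PBS and 0.148 against HEK-EV, so it did not pass. Without PBS replicate 1 both passed, at 0.41 (adjusted p = 0.0155) and 0.29 (adjusted p = 0.0465).

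Slc40a1 encodes ferroportin, the one known exporter of iron from cells (gene ID 53945, chr1:45908070-45926532). Its values were 493, 397 and 375 TPM in PBS, 337, 489 and 512 TPM in HEK-EV and 315, 252 and 397 TPM in MSC-EV samples. The groups overlapped in every comparison, with MSC-EV replicate 2 lowest and HEK-EV replicate 3 highest. The log2 fold change of MSC-EV was -0.41 against PBS (SE 0.197, 95% interval -0.85 to 0.04, adjusted p = 0.257) and -0.47 against HEK-EV (SE 0.197, -0.92 to -0.03, adjusted p = 0.185). The estimate for HEK-EV against PBS was 0.07 (-0.38 to 0.51). With depth as a covariate MSC-EV against PBS gave -0.11 (adjusted p = 0.842), and with the replicate block and depth together it turned to 0.32 (adjusted p = 0.526), where the median of all genes was 0.16. With the acinar split as a term it was -0.65 (adjusted p = 0.204). With single libraries left out the estimate of MSC-EV ran from -0.57 to -0.24 against PBS and from -0.66 to -0.31 against HEK-EV.

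Markers of other cells moved with the Slc40a1 level. The 3 libraries with most Slc40a1 were also the 3 with the highest sum of 9 Kupffer cell markers, and the 3 with least Slc40a1 were the 3 with the lowest sum. That sum was 4262 TPM in HEK-EV replicate 3 and 1889 TPM in MSC-EV replicate 2. Against PBS, 8 of the 9 had lower estimates in MSC-EV, 2 with no overlap (14.9% of all genes). Adgre1 was the exception, at 449, 418 and 354 TPM in PBS and 460, 386 and 451 TPM in MSC-EV samples. Against HEK-EV, 8 had lower estimates, 0 with no overlap (17.5% of all genes). Of the 9, 0 were called in either comparison (3.25% and 4.4% of all genes were called lower). The sum of 8 liver endothelial markers ran from 645 to 714 TPM in PBS, 571 to 736 in HEK-EV and 359 to 488 in MSC-EV samples. Set against ferritin, a ratio that scaling between samples cannot move, Slc40a1 stood at 2.19, 2.16 and 1.94 TPM per 100 TPM of Fth1 plus Ftl1 in PBS samples. It stood at 1.74, 2.46 and 2.58 in HEK-EV and at 1.16, 0.902 and 1.72 in MSC-EV samples, so the MSC-EV libraries were below all others on this ratio, with HEK-EV replicate 1 close to MSC-EV replicate 3. All 9 Kupffer and all 8 endothelial markers were detected. Their part in the level of Slc40a1 was not tested, and both this order of libraries and the ratio to ferritin were looked at after the values were seen.

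Tfrc, the transferrin receptor, whose message level responds to iron (gene ID 22042, chr16:32608896-32632794), showed no change that passed. Its values were 24.5, 25.3 and 23.9 TPM in PBS, 19.2, 21.3 and 34.6 TPM in HEK-EV and 31.0, 22.1 and 27.5 TPM in MSC-EV samples. HEK-EV held both the lowest and the highest library, so its SD (8.33 TPM) was far above that of PBS (0.660 TPM). The log2 fold change of MSC-EV was 0.11 against PBS (SE 0.195, limma adjusted p = 0.79), and the 95% interval, -0.33 to 0.55, allows folds from 0.797 to 1.46. With single libraries left out this estimate ran from 0.0044 to 0.24. Of 9 erythroid markers matched, 6 stayed below 1 TPM in every library, Alas2 and Klf1 among them, and the whole list summed to 0.596 to 4.71 TPM.

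Slc11a1 (Nramp1) pumps iron and manganese out of the phagosome of macrophages and neutrophils and limits the growth of microbes there (gene ID 18173, chr1:74375014-74386057). Its values were 329, 359 and 377 TPM in PBS, 369, 387 and 395 TPM in HEK-EV and 303, 317 and 312 TPM in MSC-EV samples. The MSC-EV libraries lay below all 6 others and spread little (SD 6.99 TPM). Slc11a1 was lower in MSC-EV than in HEK-EV (log2 fold change -0.30, SE 0.0602, 95% interval -0.44 to -0.17, a fold of 0.810, adjusted p = 0.0267). Against PBS the estimate was -0.19 (SE 0.0602, adjusted p = 0.0955), and for HEK-EV against PBS it was 0.11 (-0.02 to 0.25, adjusted p = 0.999).

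Without any one of the 6 libraries compared the Slc11a1 call was lost, with adjusted p from 0.0507 to 0.105, while the estimate stayed between -0.33 and -0.28. In 5 of those fits few genes of the whole table passed: 1, 0 and 31 of 13820 without HEK-EV replicate 1, 2 and 3, and 0 without MSC-EV replicate 1 and 0 without replicate 2. Without MSC-EV replicate 3, 4.49% of all genes passed. Scaling by median of ratios gave -0.27 (adjusted p = 0.0856) and quantile normalization -0.20 (adjusted p = 0.0649). Markers of neutrophils (11 genes), which express Slc11a1 as monocytes do, summed to 5125 to 7037 TPM in HEK-EV, 3041 to 3844 in MSC-EV and 3117 to 5737 in PBS samples. S100a8 and S100a9 make up most of that sum. Ltf, Camp and Ngp of the same list had higher estimates in MSC-EV, with no overlap against PBS (11.2% of all genes were higher with no overlap). Against PBS 1 of the 11 was called higher (1.86% of all genes) and 0 lower (3.25%). Against HEK-EV 1 was called higher (1.51%) and 1 lower (4.4%), 8 had lower estimates and 7 were lower with no overlap (17.5%). The 10 monocyte markers summed earlier all had lower estimates in MSC-EV against PBS and against HEK-EV. In each comparison 5 were called lower (3.25% and 4.4% of all genes) and 9 were lower with no overlap (14.9% and 17.5%). The part of neutrophil and monocyte markers in the Slc11a1 level was not tested. Over 24 alternative fits the adjusted p ran from 0.00455 to 0.135, and 13 of them passed, 9 of which leave the estimate unchanged by construction.

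Slc11a2 (DMT1) carries iron out of the endosome after transferrin uptake (gene ID 18174, chr15:100387898-100424209). It stood at 13.28, 12.96 and 12.36 TPM in PBS, 13.95, 14.28 and 16.20 TPM in HEK-EV and 14.25, 15.28 and 13.20 TPM in MSC-EV samples. The HEK-EV libraries were all above the PBS libraries, yet the difference did not pass (log2 fold change 0.19, SE 0.0839, adjusted p = 0.999). The predicted gene Gm5475 on the opposite strand overlaps Slc11a2 and was listed at 0 TPM in all 9 samples. The ratio of Slc11a1 to Slc11a2 TPM was 20.7 to 23.6 in MSC-EV, 24.4 to 27.1 in HEK-EV and 24.8 to 30.5 in PBS samples. This ratio was not planned, and it reuses the Slc11a1 values given above, so it is no further test.

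Hfe encodes an MHC class I-like protein that binds the transferrin receptor and takes part in iron sensing; its loss causes hereditary iron overload (gene ID 15216, chr13:23702034-23710854). Its values were 75.4, 84.7 and 72.9 TPM in PBS, 82.4, 87.5 and 78.3 TPM in HEK-EV and 60.0, 53.9 and 71.1 TPM in MSC-EV samples. All MSC-EV libraries were below all others, with MSC-EV replicate 3 close to PBS replicate 3. Hfe was lower in MSC-EV than in HEK-EV (log2 fold change -0.43, SE 0.101, 95% interval -0.65 to -0.20, a fold of 0.745, adjusted p = 0.0427). Against PBS the estimate was -0.33 (SE 0.101, adjusted p = 0.0858), and for HEK-EV against PBS it was 0.09 (-0.14 to 0.32).

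The Hfe call was lost without PBS replicate 3, without any HEK-EV library and without MSC-EV replicate 1 or 2, with adjusted p from 0.05001 to 0.143 and estimates from -0.46 to -0.33. Without MSC-EV replicate 3 it passed (-0.53, adjusted p = 0.0274). Median-of-ratios scaling gave -0.40 (adjusted p = 0.0543). Over 24 alternative fits the adjusted p ran from 0.00943 to 0.18, and 9 passed, 3 of them among the 15 that could move the estimate.

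Ireb2, which encodes 1 of the iron regulatory proteins that bind the hairpins printed above (gene ID 64602, chr9:54862658-54912534), was the steadiest member. It averaged 35.9 ± 1.97 TPM in PBS, 38.6 ± 1.89 in HEK-EV and 36.0 ± 1.70 in MSC-EV samples. The 95% interval of its log2 fold change in MSC-EV against PBS was -0.14 to 0.15, which leaves room for folds of 0.905 to 1.11 only.

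**Figure D3:**
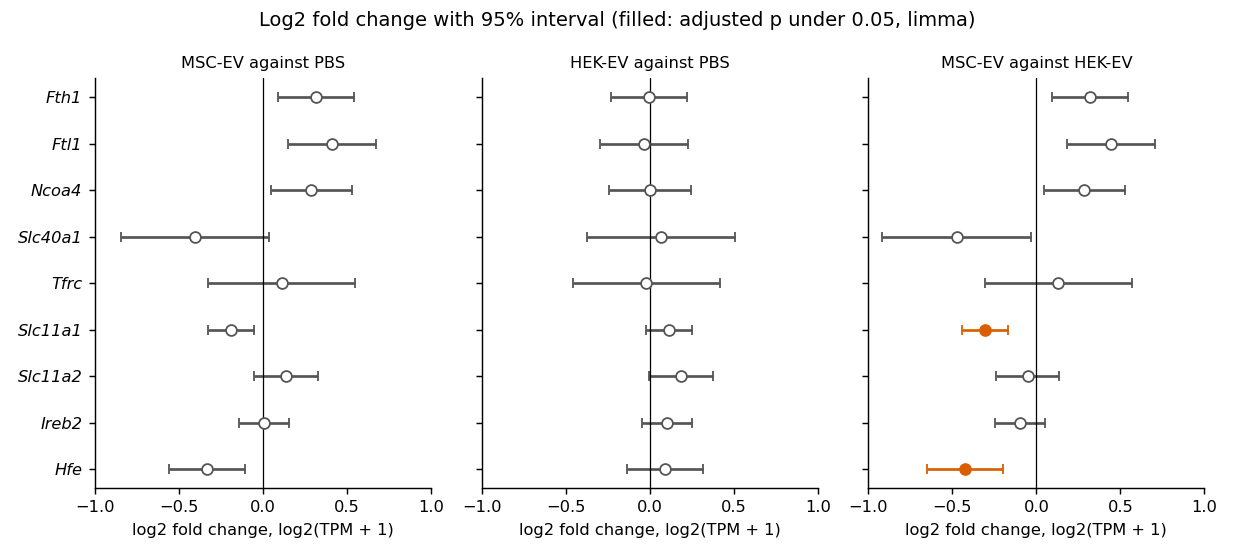
Log2 fold change of the 9 members on the log2(TPM + 1) scale (points) with 95% intervals from limma in the 3 comparisons; filled points have an adjusted p under 0.05. Only Slc11a1 (-0.30) and Hfe (-0.43) are filled, both in MSC-EV against HEK-EV, and every interval of HEK-EV against PBS includes 0.

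Counted over the members, limma called 0 of 9 in MSC-EV against PBS, where 5.11% of all genes tested passed (1.86% higher and 3.25% lower). Fth1, Ftl1, Ncoa4, Slc11a1 and Hfe, 5 of 9, had an unadjusted p under 0.05, against 23% of all genes. The groups did not overlap for 4 of 9 members, against 26% of all genes: 2 members were higher (11.2% of all genes) and 2 lower (14.9%). The median log2 fold change was 0.11 over the members and 0.01 over all genes.

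In HEK-EV against PBS limma called 0 of 9 members and 0% of all genes. No member (0 of 9) had an unadjusted p under 0.05, against 3.58% of all genes, and 1 member, Slc11a2, did not overlap (7.81% of all genes, 5.51% higher and 2.29% lower). The median was 0.07 over the members and 0.03 over all genes. In MSC-EV against HEK-EV 2 of 9 passed, both lower, where 5.91% of all genes passed (1.51% higher and 4.4% lower). There 6 members had an unadjusted p under 0.05 (23.3% of all genes) and 5 did not overlap (30.1% of all genes), 3 higher (12.6%) and 2 lower (17.5%). The median was -0.05 over the members and -0.02 over all genes. Of all genes called, 36.4% were higher in MSC-EV against PBS and 25.6% against HEK-EV, shares that were 47.5% and 46.9% with median-of-ratios scaling. MSC-EV against PBS and MSC-EV against HEK-EV share the MSC-EV samples.

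The counts moved with single libraries, as did those over all genes. Without PBS replicate 1 the member count was 3 in MSC-EV against PBS (Ftl1, Slc11a1 and Ncoa4), where 13.5% of all genes passed, and 4 in MSC-EV against HEK-EV, where 9.91% passed. Without MSC-EV replicate 3 it was 1 in both, with 3.39% and 4.49% of all genes. Without PBS replicate 3 it was 1 in MSC-EV against HEK-EV, with 5.72% of all genes. Leaving out any HEK-EV library, MSC-EV replicate 1 or MSC-EV replicate 2 gave 0 members there, in fits that called 0 to 31 of 13820 genes. Leaving out HEK-EV replicate 2 and MSC-EV replicate 3 together gave 0 members and 0 of all genes.

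**Figure D4:**
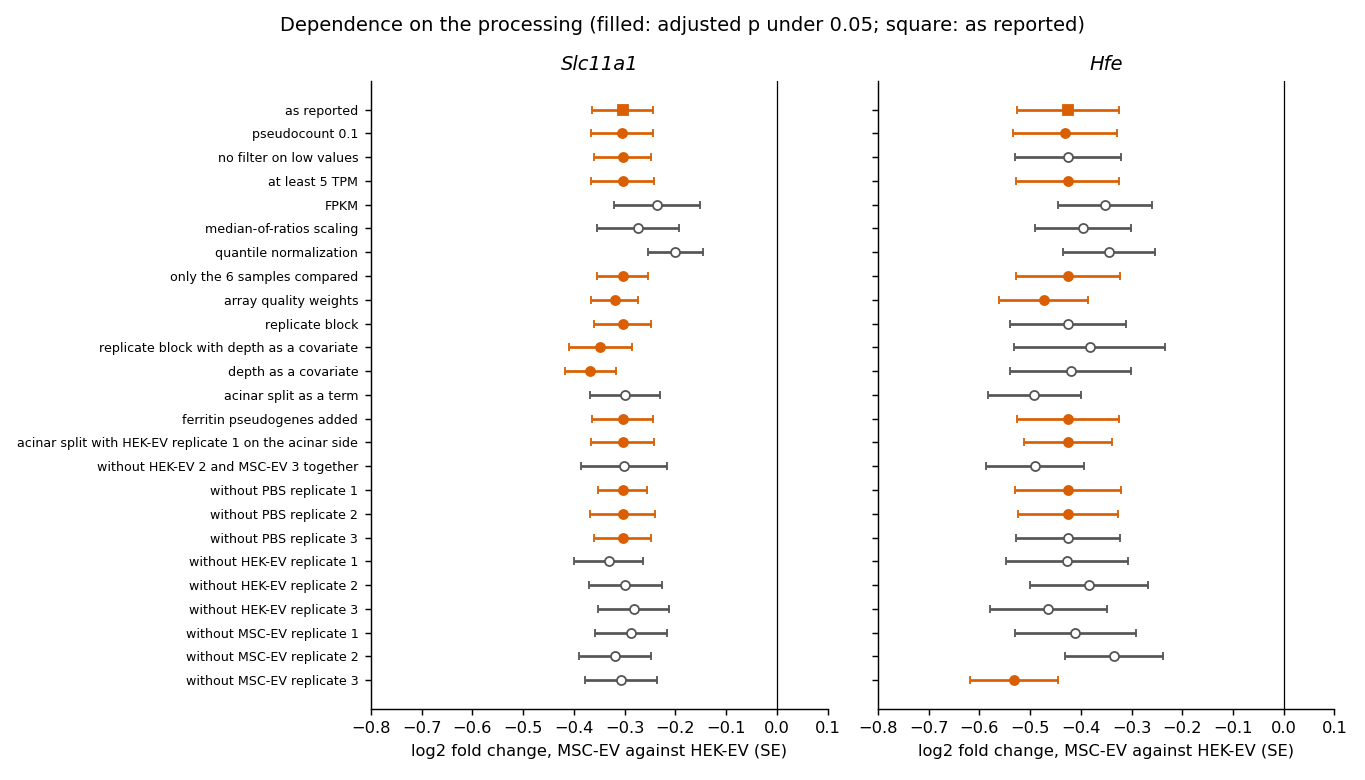
Log2 fold change of Slc11a1 and Hfe in MSC-EV against HEK-EV (points, with SE) as reported (square) and under 24 alternatives; filled points have an adjusted p under 0.05. In 9 alternatives the estimate equals the reported one by construction; the other 15 lie between -0.37 and -0.20 for Slc11a1 and between -0.53 and -0.33 for Hfe, and 4 and 3 of them pass.

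The other genes of iron metabolism were taken from 4 lists with 48 genes, of which 38 passed the filter. In MSC-EV against PBS 2 were higher and 2 lower past the threshold, against 5.11% of all genes. In MSC-EV against HEK-EV 2 were higher and 4 lower, against 5.91%, and in HEK-EV against PBS 0 passed. An unadjusted p under 0.05 was found for 14, 16 and 3 of the 38 in these comparisons, beside 23%, 23.3% and 3.58% of all genes. The median log2 fold changes were -0.01, -0.07 and 0.02, beside 0.01, -0.02 and 0.03 over all genes.

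Among the 9 importers tested of 13 listed, Trf passed in both MSC-EV comparisons. Of all genes, 1.86% were called higher against PBS and 1.51% against HEK-EV. Trf encodes transferrin, the iron carrier of plasma. It averaged 213 ± 21.5 TPM in PBS, 210 ± 22.4 in HEK-EV and 285 ± 18.0 in MSC-EV samples, a log2 fold change of 0.43 against PBS (SE 0.0951, adjusted p = 0.0386) and 0.44 against HEK-EV (adjusted p = 0.0323). Tfr2, Steap1, Steap2 and Cybrd1 stayed below 1 TPM. Slc39a14, an importer of iron not bound to transferrin, averaged 6.65 TPM with PBS, 8.37 with HEK-EV and 5.50 with MSC-EV and did not pass.

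In the list of oxidases, chaperones and mitochondrial iron genes, 9 of 11 were tested. Cp and Slc25a28 passed in MSC-EV against PBS, where 1.86% of all genes were called higher and 3.25% lower. Cp encodes ceruloplasmin, the oxidase that works with ferroportin. It averaged 7.62 ± 1.43 TPM in PBS, 9.25 ± 2.93 in HEK-EV and 16.3 ± 2.20 in MSC-EV samples, and rose by 1.01 on the log2 scale in MSC-EV against PBS (SE 0.201, adjusted p = 0.03). Slc25a28, a mitochondrial iron importer, averaged 48.9 ± 2.55, 46.1 ± 2.30 and 40.2 ± 2.19 TPM and was lower against PBS (-0.28, adjusted p = 0.049). Markers of hepatocytes, which secrete Trf, Cp and Hpx, were at 735 to 844 TPM in MSC-EV samples, summed over 11 genes. They summed to 440 to 527 TPM in PBS and 360 to 557 TPM in HEK-EV samples. Trf is itself one of those 11, and the part of hepatocyte RNA in these 3 genes was not tested.

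Of 8 sensing and regulation genes tested of 11 listed, 3 passed the threshold in MSC-EV against HEK-EV, all lower, where 4.4% of all genes were called lower. The estimate was lower for 6 of the 8, and 4 were lower with no overlap (17.5% of all genes). Aco1 went the other way, with estimates of 0.22 against PBS and 0.16 against HEK-EV (limma adjusted p = 0.141 and 0.278). It was higher with no overlap in both comparisons, as were 11.2% and 12.6% of all genes. Fbxl5, the iron-sensing subunit of the ligase that degrades the Ireb2 protein, averaged 86.6 TPM with PBS, 105 with HEK-EV and 76.8 with MSC-EV (-0.44, adjusted p = 0.0443). Bach1, a heme-sensing repressor of ferritin and Hmox1 genes, averaged 102, 98.4 and 77.3 TPM. This repressor was lower in MSC-EV than in both HEK-EV (-0.34, adjusted p = 0.0494) and PBS (-0.39, SE 0.0853, adjusted p = 0.038). Nfe2l2, the activator Nrf2, averaged 328, 348 and 290 TPM (-0.26 against HEK-EV, adjusted p = 0.0424). Hamp, the hormone hepcidin that removes ferroportin from the surface, stood at 2.61 to 7.16 TPM, with no change that passed.

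Of 12 heme genes tested of 13 listed, Hpx and Hp passed, both in MSC-EV against HEK-EV, 1 higher and 1 lower, where 1.51% and 4.4% of all genes were called in these directions. Hpx encodes hemopexin, the heme scavenger of plasma, and averaged 11.9, 9.59 and 20.0 TPM (1.02, adjusted p = 0.0341). Hp encodes haptoglobin, which binds free hemoglobin and is made by neutrophils and monocytes as well as hepatocytes. It averaged 425, 471 and 235 TPM (-0.99, adjusted p = 0.0284), and it is one of the 10 monocyte markers whose sum is given above. Hmox1, which frees iron from heme, averaged 843 ± 96.1, 829 ± 122 and 956 ± 140 TPM and did not pass (0.18 against PBS, adjusted p = 0.478).

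The list counts moved in the same way. In MSC-EV against PBS the count of 4 was 0 without PBS replicate 2 or 3, where 0.0362% and 0.0507% of all genes passed. It was 0 without any MSC-EV library, where 0.181%, 0.427% and 3.39% passed for replicates 1 to 3. It was 1 without HEK-EV replicate 2 or 3 (2.15% and 4.05% of all genes) and 12 without PBS replicate 1 (13.5%). In MSC-EV against HEK-EV the count of 6 was 0 without any HEK-EV library or without MSC-EV replicate 1 or 2, in fits that called 0 to 31 of all genes. It was 1 without MSC-EV replicate 3 (4.49%), 3 without PBS replicate 2 (4.6%), 4 without PBS replicate 3 (5.72%) and 9 without PBS replicate 1 (9.91%).

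**Figure D5:**
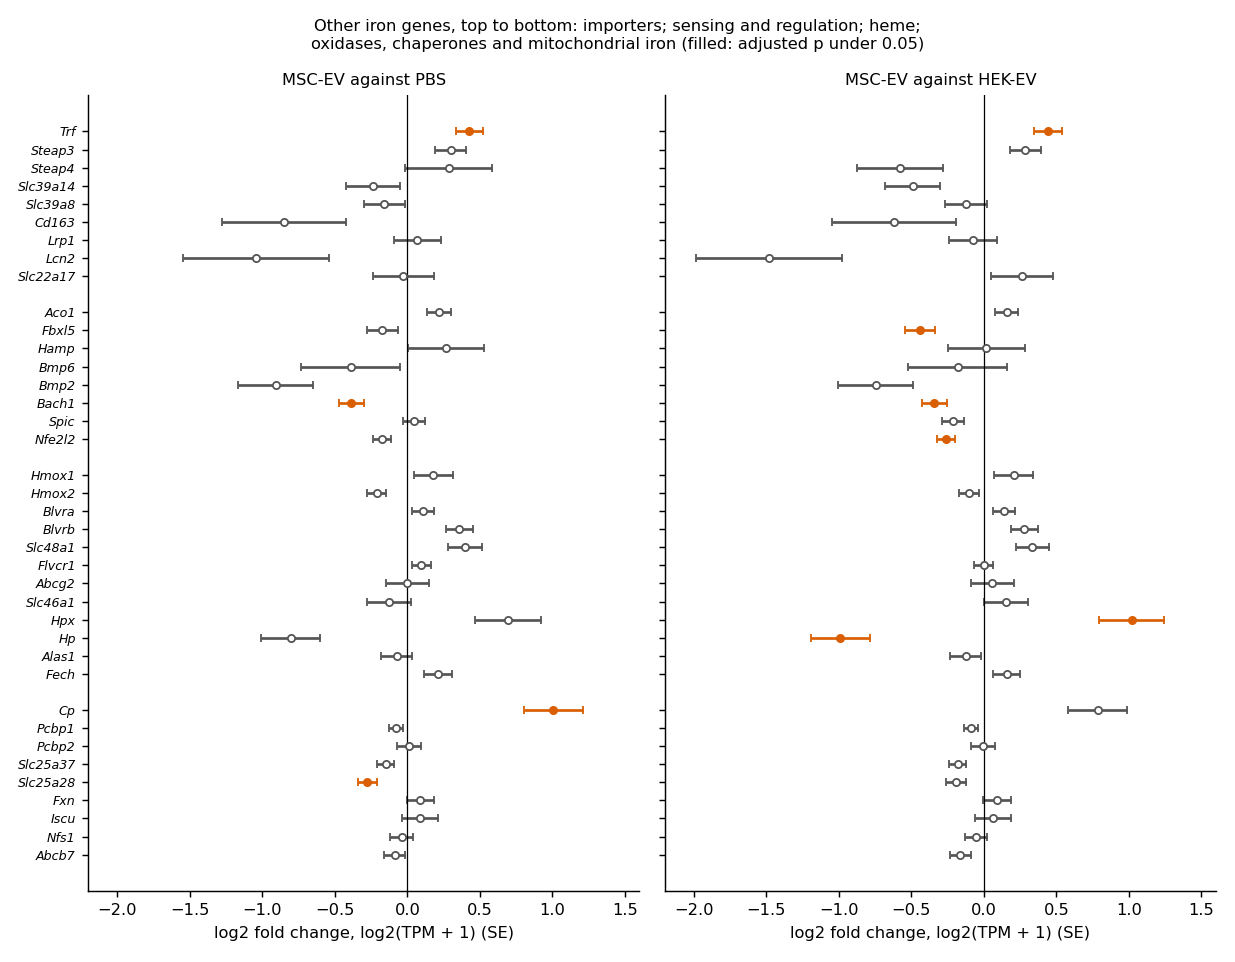
Log2 fold change on the log2(TPM + 1) scale (points) with SE for the 38 other iron genes tested, grouped by list, in MSC-EV against PBS and against HEK-EV; filled points have an adjusted p under 0.05. Trf and Bach1 are filled in both panels, Cp and Slc25a28 on the left only, and Fbxl5, Nfe2l2, Hpx and Hp on the right only.

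The genes with the pattern over the 9 samples most like that of a member were found by the root-mean-square difference of profiles scaled to mean 0 and SD 1, among 9441 genes of at least 5 TPM on average. The nearest to Ftl1 were Lgals3, Renbp and Dtnbp1, with differences of 0.0935, 0.128 and 0.130, where the median over all genes was 1.37. The nearest to Fth1 were Cox8a, Glo1 and Cops6 (0.173 to 0.191). Slc40a1 was nearest to Hs6st1, Cdh5 and Stab2 (0.221 to 0.255), and Stab2 is one of the 8 endothelial markers summed above. Slc11a1 was nearest to Lrrc25, Pglyrp1 and Pi16 (0.174 to 0.189), and Hfe to Dhrs1, Cdc40 and Lilra5 (0.215 to 0.229). Ncoa4 was nearest to Sdhb, Phpt1 and Ccdc90b (0.224 to 0.231) and Ireb2 to Purb, Creb1 and Norad (0.229 to 0.236). Tfrc (Ndfip2, Stk25 and Nfkbia, 0.378 to 0.474) and Slc11a2 (Gys1, Ecd and Gtpbp6, 0.386 to 0.467) had no gene as close.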

How the data were processed

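Bulk RNA sequencing of 9 samples was deposited as 1 table per sample with TPM, FPKM and coverage per gene, per the file headers. HISAT2 2.1.0, StringTie and build mm10 are named in the submitters' processing notes, with no role stated; libraries were stranded mRNA libraries, per the labels' protocols. The deposited TPM have the same total in every sample. The authors' FPKM served as an alternative, and the deposited coverage signal, divided by FPKM, as a measure of depth. Gene names were absent, so gene IDs were matched to the RefSeq table of GRCm38.p6 (45679 of 45777 had a symbol, 99.8%). Rows of a gene were summed.

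Genes that reached 1 TPM in 3 or more samples were tested on log2(TPM + 1) with limma 3.58.1 in R 4.3.3 (trend, all 9 samples, no covariate, two-sided). Shares and ratios were tested by exact permutation in scipy 1.17.1. The method was tested on simulated data. There it missed most changes of about the size of the ferritin estimates, so a missed threshold does not show that a gene did not change. The members and lists were chosen with earlier results of these data known. Named were all members, other iron genes past the threshold (up to 4 per direction and comparison), Hmox1, Hamp, Slc39a14, Fbxl5, and the 3 genes nearest to each member. Aco1 was named after its values were seen. Alternatives: pseudocount 0.1, no filter or 5 TPM, FPKM, median-of-ratios, quantile normalization, 6 samples, array weights, replicate block, depth, acinar split, pseudogenes and leaving out samples. An acinar split that moves HEK-EV replicate 1, and the fit without HEK-EV replicate 2 and MSC-EV replicate 3, were chosen after seeing the data.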

Additional observations from a re-analysis of the deposited data

Results flagged for a closer look

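For 2 members the effects of the vesicle sources against PBS differed. This difference is the comparison of MSC-EV with HEK-EV given above, not a further test. For Slc11a1 it was -0.30 (log2, MSC-EV effect minus HEK-EV effect), made of -0.19 for MSC-EV and 0.11 for HEK-EV, and for Hfe it was -0.43, made of -0.33 and 0.09. Neither effect against PBS passed the threshold on its own. The call was lost without any one of the 6 libraries compared for Slc11a1, and for Hfe without PBS replicate 3, any HEK-EV library or MSC-EV replicate 1 or 2.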

How the results depend on the processing

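Of the 24 alternatives, 9 leave the estimates of Slc11a1 and Hfe in MSC-EV against HEK-EV as they are by construction and change only their error or the genes tested. In the other 15 both estimates were below 0, with 4 and 3 past the threshold. For MSC-EV against PBS, 16 alternatives could move Fth1 and 17 Ftl1, and the estimates ran from 0.02 to 0.42 and from 0.21 to 0.62. The acinar split that moves HEK-EV replicate 1 and the fit without HEK-EV replicate 2 and MSC-EV replicate 3 together were chosen after seeing the data. The cause of the shifts below was not tested.

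In MSC-EV against PBS (0 members and 4 other iron genes past the threshold as reported) members numbered 1 at 5 TPM, 5 with array weights and 2 with depth as a covariate, where 5.99%, 30.1% and 9.7% of all genes passed (5.11% as reported). Other iron genes numbered 0 with no filter (1.41% of all genes), 2 with median-of-ratios scaling (4.38%), 1 with only the 6 samples compared (0.557%), 17 with array weights, 8 with depth, 0 with the acinar split (0.0362%), 0 with its added form (0.152%) and 0 without HEK-EV replicate 2 and MSC-EV replicate 3 (0%). In MSC-EV against HEK-EV (2 and 6, with 5.91% of all genes) members numbered 1 with no filter (1.51%), 6 with array weights (15.1%), and 0 with FPKM (3.32%), median-of-ratios scaling (3.73%) and quantile normalization (5.02%). They numbered 0 with the acinar split and without those 2 libraries, fits in which 0% of all genes passed. Other iron genes numbered 0 with no filter, 3 with FPKM, 3 with median-of-ratios scaling, 12 with array weights, 0 with the acinar split, 3 with its added form (3.98%) and 0 without those 2 libraries. HEK-EV against PBS gave 0 throughout. Leaving out 1 library gave 0 to 3 and 0 to 4 members, and 0 to 12 and 0 to 9 other iron genes, in MSC-EV against PBS and against HEK-EV.

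The replicate numbers did not pair the samples: deviations of same-numbered samples correlated at -0.50 to 0.06, and 0 of 9 libraries correlated best with their own number. With the replicate block, other iron genes past the threshold numbered 2 in MSC-EV against PBS (2.92% of all genes) and 2 against HEK-EV (3.24%), and members 1 against HEK-EV. With the block and depth together they numbered 1 (other iron genes against PBS, with 0.492% of all genes) and 1 (members against HEK-EV, with 4.99%). The share of higher genes among all called in MSC-EV against PBS was 36.4% as reported, 63.1% with FPKM, 47.5% with median-of-ratios scaling and 44.5% with quantile normalization. Against HEK-EV it was 25.6%, 59.5%, 46.9% and 45.5%. Depth as a covariate moved the median of all genes in MSC-EV against PBS from 0.01 to 0.10, and block and depth together to 0.16. Every MSC-EV library had a higher depth measure than all others, so fits with depth cannot tell depth and group apart.

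Signs turned mostly where estimates were near 0. Slc40a1 in MSC-EV against PBS became 0.32 with block and depth, where the median of all genes was 0.16. Ireb2 there became -0.0050 with the acinar split, -0.044 with its added form and -0.031 without the 2 libraries. Slc11a2 in MSC-EV against HEK-EV became 0.010 with FPKM. In HEK-EV against PBS, Ncoa4 became -0.022 with FPKM, -0.033 with median-of-ratios scaling, -0.027 with quantile normalization, -0.025 with the acinar split, -0.064 with its added form and -0.025 without the 2 libraries. Ftl1 became 0.054 with quantile normalization, 0.074 with array weights, 0.070 with block and depth, 0.089 with depth and 0.014 with the added split. Fth1 became 0.080 with array weights, 0.030 with depth, 0.035 with the acinar split, 0.079 with its added form and 0.00080 without the 2 libraries. Tfrc became 0.14 with block and depth, 0.039 with depth, 0.10 with the added split and 0.070 without the 2 libraries. Slc40a1 became -0.053 with the acinar split and -0.012 without the 2 libraries, and Hfe -0.039 with the added split.

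With 1 library left out, HEK-EV against PBS ran from -0.062 to 0.046 for Fth1, -0.092 to 0.075 for Ftl1, -0.087 to 0.12 for Ncoa4, -0.044 to 0.26 for Slc40a1 and -0.27 to 0.14 for Tfrc. MSC-EV against HEK-EV ran from -0.10 to 0.010 for Slc11a2 and -0.028 to 0.38 for Tfrc, and MSC-EV against PBS from -0.031 to 0.047 for Ireb2. The difference in ferritin share ran from -0.122 to 0.0853 percentage points (HEK-EV against PBS), 0.506 to 0.749 (MSC-EV against PBS) and 0.544 to 0.787 (MSC-EV against HEK-EV), and that in the heavy to light chain ratio from -0.0114 to 0.0306, -0.0568 to -0.0148 and -0.0567 to -0.0363. The lack of counts leaves counting error unknown.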
